A study of Rattus norvegicus with 6 samples.

Results

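The genes described here encode β-catenin, the destruction complex that degrades it and the TCF/LEF factors it binds in the nucleus. The 10 members were Ctnnb1, Apc, Axin1, Axin2, Gsk3a, Gsk3b, Tcf7l2, Tcf7l1, Tcf7 and Lef1, and every probe set annotated to one of them alone was taken, which gave 21 of the 31042 probe sets tested (10 of 14217 named genes). The RNA came from the 832/13 INS-1 line, a clone of rat insulinoma cells used as a model of the β-cell, at passages 7 to 25 and in medium with 11 mM glucose. One group of 3 arrays was hybridized with RNA from cells electroporated with siRNA against COUP-TFII, the orphan nuclear receptor encoded by Nr2f2 (COUP-TFII depleted cells), and the other 3 with RNA from cells given scrambled siRNA (control cells), after 48 h of culture. The labels call the arrays of each group biological replicates 1, 2 and 3. The study asked whether COUP-TFII acts on β-catenin signaling in β-cells, and the arrays give 1 view of the RNA side of that question for this set of genes. By RT-qPCR in separate experiments on the same line, the study reported lower Ctnnb1, Axin2, Ccnd1, Myc and Glul mRNA in depleted cells. It also reported lower activity of a TCF/β-catenin reporter in depleted cells and higher Ctnnb1 mRNA when COUP-TFII was overexpressed. In islets of mice without pancreatic COUP-TFII it found lower Ctnnb1 and Axin2 mRNA.

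β-catenin, encoded by Ctnnb1, has a role at cell junctions, where it binds cadherins, and another in transcription. Without a Wnt signal the scaffolds APC and axin hold β-catenin for the glycogen synthase kinases, which mark it for ubiquitination, and when a Wnt ligand stops this step, β-catenin accumulates and switches TCF/LEF factors toward activation. Much of this control acts on the protein, which these arrays do not measure, whereas Axin2 is itself a transcriptional target of the pathway and a negative regulator of it.

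Each transcript is read by 1 or more probe sets of short oligonucleotides, whose combined brightness is given as a linear MAS5 intensity. Background was judged from 27 probe sets that target Bacillus genes, absent from rat cells. These read at most 20.7, and a probe set is called dim when neither group mean exceeds that signal. From 36.2% to 43.7% of the probe sets of an array lay at or below it, with the highest shares, 42.2% and 43.7%, on the arrays of replicate 2. The siRNA target behaved as labelled on its brightest probe set, 1389554_at, with Nr2f2 signals of 47.0, 27.7 and 23.8 in depleted cells and 182, 235 and 179 in control cells (log2 fold change -2.65 ± 0.30 SE, limma adjusted p = 0.404 unpaired and 0.0185 with the replicate number as a block). Of 8 β-cell markers measured, among them Ins1, Ins2, Pdx1 and Mafa, 8 lay above the Bacillus scale on every array. All 6 fibroblast markers were dim, as were 4 of 6 markers of other islet cells (not Gcg and Ppy) and 6 of 7 acinar and duct markers (not Krt7). So were 2 of 3 endothelial markers (not Kdr) and 3 of 4 leukocyte markers (not Cd68). Gcg made up most of the summed signal of the other islet markers, 860 to 8131 in depleted cells and 434 to 6378 in control cells. The summed signal of the acinar and duct markers was 425 to 474 in depleted cells and 499 to 585 in control cells, without overlap. With 6 of the 7 dim, this sum was mostly the signal of Krt7, and its part in the results was not tested.

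Depletion of COUP-TFII was accompanied by no change in the RNA of a member that passed an adjusted p of 0.05 in limma. The unpaired fit called no probe set at that threshold, Nr2f2 included. The lack of a member call there does not show that the RNA was unchanged. In the unpaired limma fit 0 of the 21 probe sets passed an adjusted p of 0.05, where 0.0% of all probe sets passed, and 0 passed at an unadjusted p of 0.05, where 2.31% of all probe sets did. The lowest unadjusted p among them was 0.173, and the methods' t-test also gave 0 at either threshold. With the replicate number as a block 0 passed after adjustment (0.0161% of all probe sets, lowest member adjusted p = 0.797) and 1 passed unadjusted, a probe set of Apc, where 6.23% of all probe sets passed. The groups overlapped for every member probe set, whereas among all probe sets 6.69% did not overlap (3.24% higher and 3.45% lower in depleted cells). The median log2 fold change was -0.0059 over the members and -0.0031 over all probe sets, with 10 members higher and 11 lower by mean. A lower level per cell and fewer cells that carry a transcript cannot be told apart in RNA from whole cultures.

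**Figure D1:**
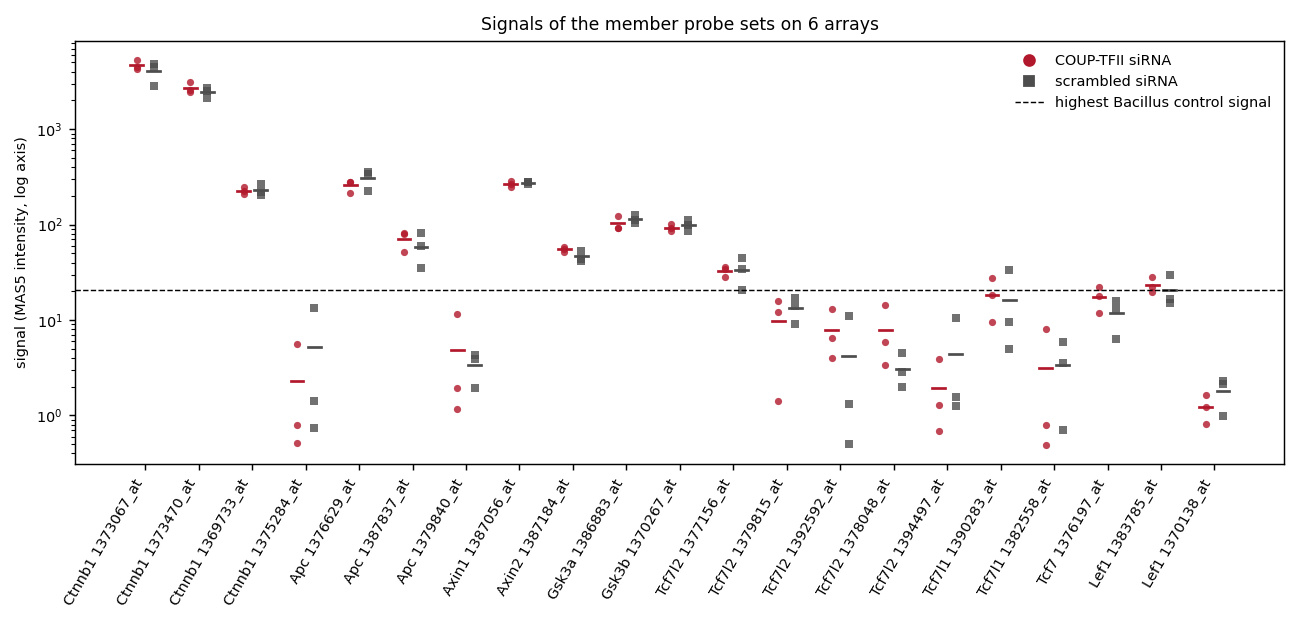
Signals of the 21 member probe sets on a log axis of MAS5 intensity, with circles for the 3 COUP-TFII siRNA arrays, squares for the 3 scrambled siRNA arrays, short bars for the group means and a dashed line at the highest Bacillus control signal, 20.7. The groups overlap for every probe set, and 10 probe sets have both means at or below the line.

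How well a change could have been seen differed among the members. Dim signals were found for 10 of the 21 (47.6%, against 37.5% of all probe sets), and 11 lay above the Bacillus scale in at least 1 group, 9 of them on every array. Ctnnb1, Apc, Axin1, Axin2, Gsk3a, Gsk3b, Tcf7l2 and Lef1 each had at least 1 such probe set, and Tcf7l1 and Tcf7 had none. Among these 11 the log2 fold changes ran from -0.24 to 0.34 with standard errors of 0.14 to 0.48. Among the dim probe sets they ran from -1.01 to 1.52 with standard errors of 0.61 to 1.16, and all 10 member signals under 1 were theirs. For 9 of the 21 the 95% interval of the unpaired fit lay within 2-fold in either direction, as it did for 41.2% of all probe sets. With the replicate block it did so for 10 of the 21.

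**Figure D2:**
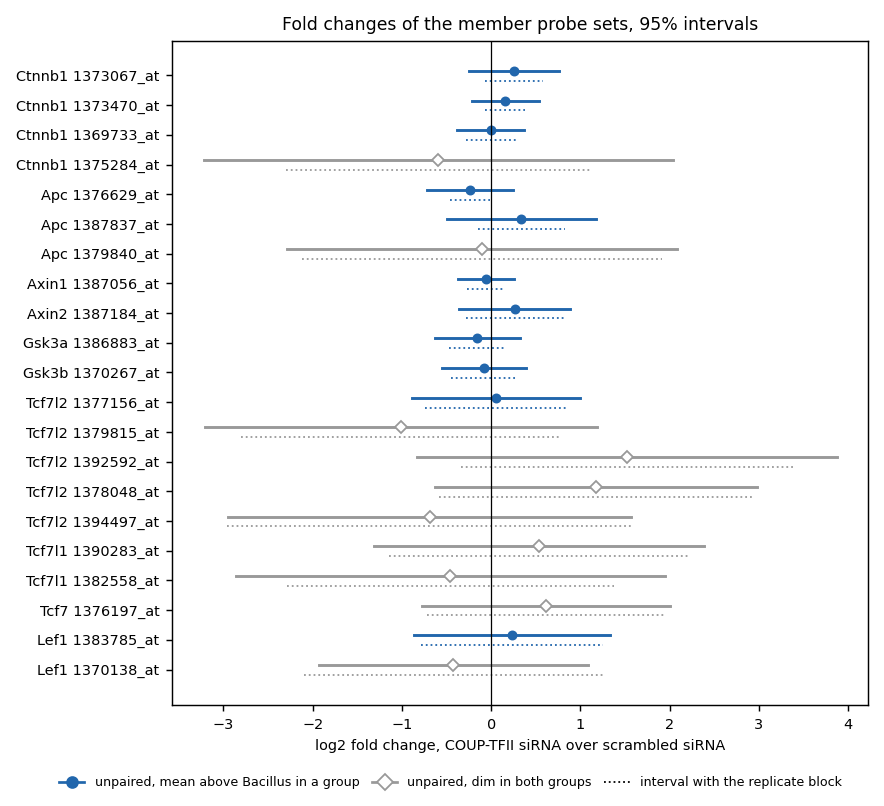
Log2 fold change of COUP-TFII siRNA over scrambled siRNA for each member probe set (x axis), with its 95% interval from the unpaired limma fit (solid line) and from the fit with the replicate block (dotted line). Filled circles have a mean above the highest Bacillus signal in at least 1 group and open diamonds are dim in both groups; the filled points lie between -0.24 and 0.34 and the diamonds between -1.01 and 1.52.

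Ctnnb1 was measured by 4 probe sets. The brightest, 1373067_at, read 4272, 4520 and 5310 in COUP-TFII depleted cells and 4474, 2830 and 4772 in control cells. Control replicate 2 was the lowest of the 6 arrays, and the other 5 lay close together with the groups interleaved. The signal averaged 4701 ± 542 in depleted cells and 4025 ± 1046 in control cells (SD, n = 3 each). The log2 fold change was 0.25 ± 0.22 (SE), with a 95% interval from a 15.7% decrease to a 68.8% increase, and it was 0.019 without control replicate 2. A second bright probe set, 1373470_at, read 2443, 2582 and 3159 in depleted cells and 2493, 2112 and 2723 in control cells. It had the same order of arrays within the control group, and its log2 fold change was 0.16 ± 0.16 (interval -13.9% to 44.6%, 0.057 without control replicate 2 and 0.048 without COUP-TFII siRNA replicate 3). With the replicate block the lower bounds of these 2 intervals were -4.74% and -4.59%.

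The third Ctnnb1 probe set, 1369733_at, read 247, 211 and 224 in depleted cells and 217, 265 and 205 in control cells. Here control replicate 2 was the highest array, the opposite of its place on the brighter probe sets, and the log2 fold change was -0.0059 ± 0.16 (interval -23.1% to 28.9%). The fourth, 1375284_at, was dim, at 0.788, 0.518 and 5.56 in depleted cells and 1.41, 0.747 and 13.5 in control cells, and gave only the wide value of -0.59 ± 1.16. Over the 6 arrays the log2 signal of 1373067_at correlated with that of 1373470_at at r = 0.912 and with that of 1369733_at at r = -0.782, values that rest on 6 points, in which control replicate 2 lies farthest out. Whether the 4 probe sets read the same Ctnnb1 transcripts was not tested.

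Apc encodes the large scaffold of the destruction complex, and its 2 probe sets above the Bacillus scale pointed in different directions. Probe set 1376629_at read 281, 213 and 279 in depleted cells and 352, 226 and 342 in control cells. The depleted array was the lower in 3 of 3 same-numbered pairs, by 0.32, 0.084 and 0.30 on the log2 scale, although the groups overlapped, both replicate 2 arrays being the low ones. It averaged 258 ± 38.6 in depleted cells and 307 ± 70.3 in control cells (SD, n = 3 each). Its log2 fold change was -0.24 ± 0.21 (95% interval -0.72 to 0.25, adjusted p = 1 in limma). With the replicate block the interval narrowed to between -27.2% and -0.894% (unadjusted p = 0.0403, adjusted p = 0.797), the single member probe set past an unadjusted 0.05. Leaving out 1 array moved the value between -0.44 (without control replicate 2) and -0.10 (without COUP-TFII siRNA replicate 2).

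Probe set 1387837_at of Apc read 80.2, 52.2 and 81.5 in depleted cells and 82.0, 34.8 and 59.2 in control cells. The depleted arrays of replicates 2 and 3 were the higher of their pairs and that of replicate 1 was not, and the log2 fold change was 0.34 ± 0.37, or 0.0038 without control replicate 2. The third, 1379840_at, was dim, at 11.5, 1.96 and 1.17 in depleted cells and 3.94, 1.93 and 4.27 in control cells. Its high depleted array of replicate 1 was not matched by the others, and its log2 fold change was -0.10 ± 0.96. The 3 probe sets therefore gave no common direction for Apc.

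The axins are scaffolds on which APC, β-catenin and the kinases meet. Axin1, on probe set 1387056_at, read 247, 284 and 266 in depleted cells and 269, 277 and 281 in control cells. Axin1 averaged 266 ± 18.3 in depleted cells and 276 ± 5.78 in control cells (SD, n = 3 each). The 6 signals lay close together, and the log2 fold change of -0.056 ± 0.14 had the smallest standard error of the 21 (interval -22.6% to 19.6%). Axin2, on 1387184_at, read 56.0, 58.3 and 51.9 in depleted cells and 41.9, 43.6 and 53.5 in control cells. Its depleted arrays were the higher ones in replicates 1 and 2, each by 0.42 on the log2 scale, while in replicate 3 the difference was -0.042. Axin2 averaged 55.4 ± 3.23 in depleted cells and 46.3 ± 6.24 in control cells (SD, n = 3 each), a log2 fold change of 0.27 ± 0.27 whose interval ran from a 22.0% decrease to an 85.0% increase. With the replicate block the interval of Axin2 was -17.8% to 75.7%.

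The promoters of Axin2 and Tcf7 are shown because, of the 9 member promoters in the RefSeq table (GRCr8, 250 bases before to 50 after the start), these 2 held the TCF/LEF core CTTTGAT, searched on both strands (reverse complement ATCAAAG). The core was found in 3.63% of 33469 promoters, and it is in capitals. In Axin2 (chr10:94398535-94398834, plus strand) it begins 132 bases before the start used in that table and in Tcf7 (chr10:36954230-36954529, minus strand) 4 bases before it. The Tcf7 start is the 5′ end of the gene in the RefSeq gene table, whereas the Axin2 start lies 5406 bases inside the gene, at an internal start, so sequence at the 5′ end of Axin2 was not searched. The starts of Ctnnb1, Gsk3b, Lef1 and Tcf7l1 also lay inside their genes, by 16561, 1416, 172 and 591 bases.
Axin2: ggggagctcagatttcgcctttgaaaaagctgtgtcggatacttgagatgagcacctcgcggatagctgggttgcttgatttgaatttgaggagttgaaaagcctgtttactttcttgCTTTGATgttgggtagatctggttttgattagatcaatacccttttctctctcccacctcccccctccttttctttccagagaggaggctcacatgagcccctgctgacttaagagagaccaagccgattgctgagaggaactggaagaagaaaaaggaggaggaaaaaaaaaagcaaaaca
Tcf7: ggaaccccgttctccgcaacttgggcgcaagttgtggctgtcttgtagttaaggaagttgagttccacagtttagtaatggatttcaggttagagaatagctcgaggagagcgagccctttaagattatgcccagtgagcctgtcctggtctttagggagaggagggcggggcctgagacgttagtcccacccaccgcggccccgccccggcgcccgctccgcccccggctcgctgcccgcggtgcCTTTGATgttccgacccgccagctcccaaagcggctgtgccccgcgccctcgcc
The half-site AGGTCA, to which COUP-TF receptors bind as a repeat, was in 0 of the 9 member promoters and in 16.2% of all on either strand. Its direct repeat with 1 base between, AGGTCANAGGTCA, was in 0 of 9 and in 0.0538% of all. A match describes the letters in these windows and is no evidence of binding. Neither Axin2 nor Tcf7 passed the test on the arrays.

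The glycogen synthase kinases phosphorylate β-catenin on the axin scaffold. Gsk3a, on 1386883_at, read 124, 93.0 and 92.5 in depleted cells and 127, 111 and 104 in control cells. The depleted array was the lower in 3 of 3 pairs with overlapping groups. Gsk3a averaged 103 ± 17.8 in depleted cells and 114 ± 11.9 in control cells (SD, n = 3 each), and the log2 fold change was -0.15 ± 0.21 (95% interval -0.63 to 0.32). Gsk3b, on 1370267_at, read 100.5, 85.1 and 92.8 in depleted cells and 98.0, 112 and 85.6 in control cells. Gsk3b averaged 92.8 ± 7.71 in depleted cells and 98.5 ± 13.2 in control cells (SD, n = 3 each). Here the depleted array was the lower in replicate 2 alone, and the log2 fold change was -0.080 ± 0.21 (-0.55 to 0.39).

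**Figure D3:**
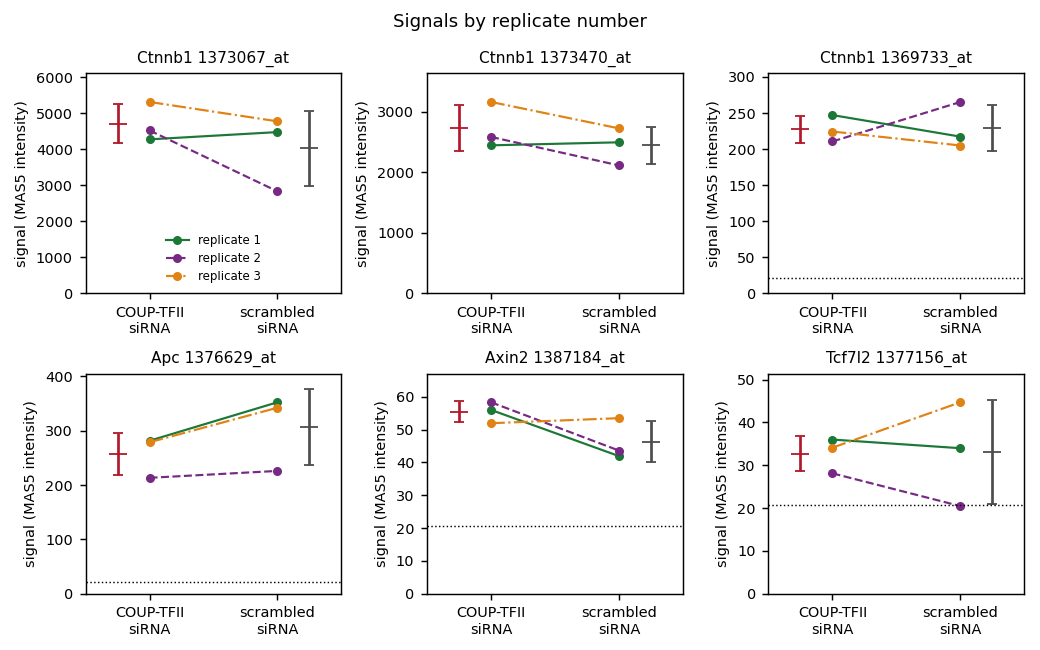
Signals (MAS5 intensity, linear axes from 0) of 6 member probe sets in COUP-TFII siRNA arrays (left) and scrambled siRNA arrays (right), with a line for each replicate number, the group mean ± SD beside the points and a dotted line at the highest Bacillus signal. The lines of Apc 1376629_at all run toward a higher signal in scrambled siRNA arrays, and those of the other 5 probe sets cross or differ in slope.

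Tcf7l2, the TCF factor most studied in β-cells and a gene tied to the inherited risk of type 2 diabetes in humans, had 5 probe sets, of which 4 were dim. The brightest, 1377156_at, read 36.0, 28.1 and 34.1 in depleted cells and 34.0, 20.5 and 44.7 in control cells, above the Bacillus scale on 5 arrays. The control arrays held both the lowest and the highest signal, and the log2 fold change was 0.050 ± 0.41, with an interval from -0.89 to 0.99 that includes changes close to 2-fold in either direction.

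The 4 dim Tcf7l2 probe sets gave the largest fold changes of the set and no common direction. Probe set 1392592_at read 6.43, 4.03 and 13.1 in depleted cells and 1.31, 0.497 and 10.9 in control cells, a log2 fold change of 1.52 ± 1.03. Probe set 1378048_at read 3.41, 5.92 and 14.4 in depleted cells and 1.98, 2.83 and 4.49 in control cells (1.18 ± 0.79). On both the depleted array was the higher of each pair, and the groups overlapped. Probe set 1379815_at read 12.2, 1.40 and 15.7 in depleted cells and 14.2, 9.19 and 16.9 in control cells (-1.01 ± 0.97, or 0.088 without COUP-TFII siRNA replicate 2). Probe set 1394497_at read 3.89, 1.29 and 0.692 in depleted cells and 1.26, 1.57 and 10.5 in control cells (-0.69 ± 0.99). Each of these 2 values leaned on 1 array, the depleted replicate 2 of the first and the control replicate 3 of the second. With log2(signal + 16), which shrinks differences among dim signals, the 4 values were 0.25, 0.30, -0.23 and -0.16.

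The other TCF/LEF factors were at or near the Bacillus scale. Tcf7, on 1376197_at, read 17.9, 11.8 and 22.0 in depleted cells and 13.2, 6.33 and 15.7 in control cells, the depleted array being the higher in 3 of 3 pairs with overlapping groups (log2 fold change 0.61 ± 0.61). Tcf7l1, which acts mainly as a repressor, read 27.5, 18.5 and 9.45 in depleted cells and 4.95, 33.8 and 9.44 in control cells on 1390283_at (0.53 ± 0.81), with replicates 1 and 2 opposed and replicate 3 equal. Its second probe set, 1382558_at, read 0.490, 0.801 and 8.04 in depleted cells and 3.55, 0.699 and 5.86 in control cells (-0.46 ± 1.06). Neither Tcf7l1 probe set separated the groups. Lef1, on 1383785_at, read 28.1, 19.7 and 22.3 in depleted cells and 29.9, 16.7 and 15.3 in control cells, above the Bacillus scale on 3 arrays (0.23 ± 0.48). Its other probe set, 1370138_at, read 1.23, 0.807 and 1.64 in depleted cells and 2.29, 2.13 and 0.986 in control cells (-0.43 ± 0.66). The 95% interval of each of these 5 probe sets reached beyond 2-fold.

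Across the members 6 probe sets differed in the same direction in all 3 same-numbered pairs, 3 higher (1 of Tcf7 and 2 of Tcf7l2) and 3 lower (Apc 1376629_at, Gsk3a and Tcf7l2 1379815_at), where 27.4% of all probe sets did (13.4% higher and 14.0% lower). Among the 11 probe sets that were not dim, the depleted array was the higher for 4 in replicate 1, 7 in replicate 2 and 6 in replicate 3. The median difference of these 11 was -0.032 in replicate 1, 0.24 in replicate 2 and 0.12 in replicate 3, against -0.013, 0.0088 and -0.0059 over all probe sets. Control replicate 2 had the lowest median signal of the 6 arrays, 29.9, and its part in the value of 0.24 was not tested.

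The patterns most like the brightest Ctnnb1 probe set over the 6 arrays, by Pearson correlation of log2 signal among the 12190 probe sets with 1 symbol and at least median brightness, were those of Eif4h (r = 0.995), Zfp105 (0.995) and Rheb (0.988). For Tcf7l2 1377156_at they were Dguok (0.988), Dtnb (0.987) and Nostrin (0.984). The points share 6 arrays, and an r of at least 0.9 was reached by 1.08% of these probe sets for Ctnnb1 and by 2.23% for Tcf7l2.

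Of the other genes of the pathway, 94 of 108 in 5 lists were measured, each by its brightest probe set. In limma 0 passed after adjustment, 5 were lower and 0 higher at an unadjusted p of 0.05 (1.34% and 0.973% of all probe sets). The median log2 fold change was -0.035 (-0.082 to 0.022 with 1 array left out), against 0.14 for the 10 members taken in the same way (0.017 to 0.19). Of these 10, 2 were dim, Tcf7l1 and Tcf7, and they had the largest values, 0.53 and 0.61. The median was 0.050 over the 11 member probe sets that were not dim and -0.0059 over all 21. With the replicate block 10 of the 94 other pathway genes were lower and 1 was higher unadjusted (3.51% and 2.72% of all probe sets), and 1, Jade1, passed after adjustment. The groups did not overlap for 7 genes, each lower in depleted cells, where 3.45% of all probe sets lay lower without overlap. Of all probe sets 37.5% were dim, against 11 of these 94, so the shares are not a matched background for the lists. The lists were also chosen with earlier results of these data known. They hold genes that the study listed as changed on these arrays, among them Ccnd1, Csnk2a2 and Ppp2r5e, so the counts are no independent test.

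Closest to the members are 19 measured partners of the destruction complex, with a median of -0.023, 9 higher by mean and 10 lower. Dact1, a regulator that binds Dishevelled, read 59.6, 63.2 and 66.4 in depleted cells and 86.2, 87.9 and 106 in control cells. Without overlap of the groups, the log2 fold change was -0.56 ± 0.22 (unadjusted p = 0.0320, adjusted p = 1). The phosphatase subunits Ppp2r5d and Ppp2r5e, which belong to the phosphatase that acts on the complex, gave -0.37 ± 0.18 and -0.27 ± 0.15, the second without overlap. Their unadjusted p in limma was 0.0774 and 0.112 unpaired, and 0.0163 and 0.0428 with the replicate block (block adjusted p = 0.777 and 0.797). For Ppp2r5d the study lists another, less bright probe set as higher in depleted cells, so the gene has no common direction.

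Among 13 proteins of β-catenin ubiquitination the median was -0.035, with 5 higher by mean and 8 lower. Jade1, which in human cells has been described as a ubiquitin ligase for β-catenin, read 492, 314 and 372 in depleted cells and 866, 623 and 621 in control cells. All depleted arrays lay below all control arrays, at a log2 fold change of -0.85 ± 0.21 (adjusted p = 1 unpaired and 0.0392 with the replicate block). The block call was lost on log2(signal + 16) (adjusted p = 0.0640) and without both replicate 2 arrays (0.631). Siah1 and Skp1, a ubiquitin ligase and an adaptor of such ligases, gave 0.22 ± 0.17 and 0.19 ± 0.15. The 28 nuclear cofactors had a median of 0.016, with 16 higher by mean and 12 lower. Csnk2a2, a catalytic subunit of casein kinase II, read 279, 313 and 314 in depleted cells and 498, 498 and 385 in control cells. Its groups did not overlap (-0.60 ± 0.15, adjusted p = 1). The corepressors Hdac2 and Tle4 gave 0.16 ± 0.14 and -0.16 ± 0.15.

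The 10 cadherin and catenin partners, which share β-catenin with the destruction complex, had a median of -0.078, with 3 higher by mean and 7 lower. Cdh1, E-cadherin, read 1192, 1098 and 1171 in depleted cells and 1632, 1692 and 1390 in control cells. Each depleted array lay below each control array, and the log2 fold change was -0.44 ± 0.13 (unadjusted p = 0.00991, adjusted p = 1). Vinculin (Vcl), a cytoskeletal linker of junctions, read 445, 435 and 464 in depleted cells and 556, 470 and 775 in control cells, again without overlap (-0.39 ± 0.19, or -0.19 without control replicate 3). Its unadjusted p in limma was 0.0689 unpaired and 0.00947 with the replicate block (block adjusted p = 0.777). Plakoglobin (Jup), the closest relative of β-catenin, gave 0.40 ± 0.23 with overlapping groups.

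The 24 measured targets of β-catenin and TCF factors, 9 of them dim, had a median of -0.15, with 7 higher by mean and 17 lower, and the median ran from -0.26 to -0.010 with 1 array left out. Of the dim targets all but Ephb3 were lower by mean, with values down to -1.60 (Lgr5). Part of the count of lower targets therefore comes from signals at the level of background. Cyclin D1 (Ccnd1), measured by 3 probe sets, read 16.5, 40.3 and 5.87 in depleted cells and 52.4, 46.0 and 43.0 in control cells on 1371643_at. These groups did not overlap, the depleted arrays differed widely among themselves, and the log2 fold change was -1.58 ± 0.66 (unadjusted p = 0.0423, adjusted p = 1). It was -0.86 without COUP-TFII siRNA replicate 3, -2.25 without COUP-TFII siRNA replicate 2 and -0.88 with log2(signal + 16), and 2 of the 3 depleted arrays lay below the Bacillus scale. Probe set 1383075_at, which the study listed as lower, read 14.1, 22.0 and 15.8 in depleted cells and 52.4, 41.9 and 27.8 in control cells, without overlap. Its log2 fold change was -1.215 ± 0.44 (limma unadjusted p = 0.0233, block adjusted p = 0.777). It ran from -1.47 to -1.01 with 1 array left out and was -0.75 with log2(signal + 16). Probe set 1371150_at read 1.09, 27.3 and 10.5 in depleted cells and 36.5, 27.0 and 14.7 in control cells, with overlap (-0.61 with log2(signal + 16)). On both 1383075_at and 1371150_at the mean of the depleted cells was below the Bacillus scale, so the size of the difference is not well measured. Myc, Ccnd2 and Twist1 gave -0.15 ± 0.20, -0.15 ± 0.22 and 0.17 ± 0.20, and the 3 probe sets of Glul, glutamine synthetase, gave -0.067 ± 0.15, -0.071 ± 0.18 and 0.051 ± 0.27.

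**Figure D4:**
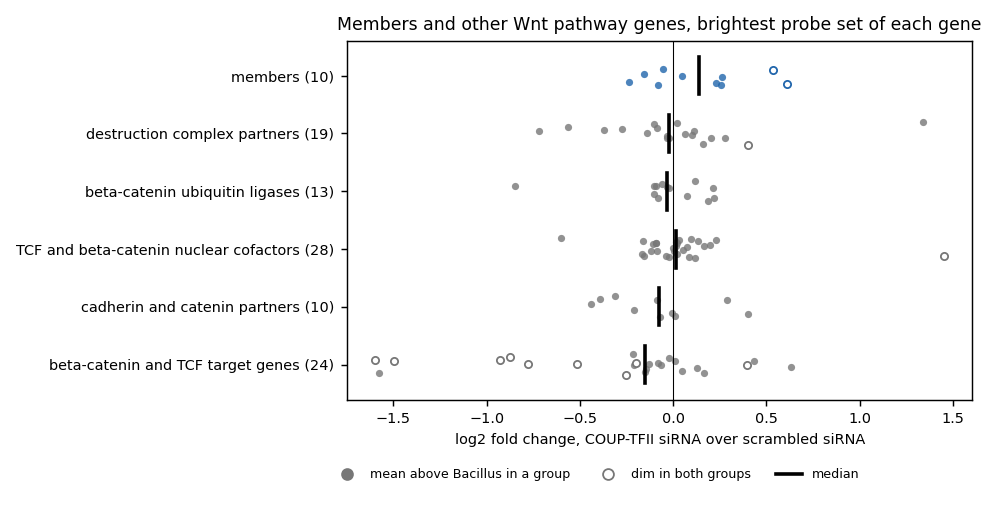
Log2 fold change of COUP-TFII siRNA over scrambled siRNA (x axis) of the brightest probe set of each gene, for the 10 members and the 5 lists of other Wnt pathway genes, with the number of genes in parentheses. Open circles are dim in both groups and the thick bar is the median of each row, 0.14 for the members and from -0.15 to 0.016 for the other lists. The 2 dim members, Tcf7l1 and Tcf7, have the largest values of the members, 0.53 and 0.61.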

How the data were processed

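RNA of 6 samples was measured on Affymetrix rat arrays. The authors deposited a linear MAS5 intensity per probe set, after subtracting background and scaling to reference probes whose identity is not given. The MAS5 version is not given in the sources used here either. Of 31099 probe sets 57 controls were left out. Values below 1 were raised to 1 before the log2 transform. Depleted and control cells were compared by limma 3.58.1 under R 4.3.3 (lmFit, eBayes with trend) in an unpaired, two-sided fit of 31042 probe sets, over all of which p-values were adjusted (Benjamini-Hochberg). Array number, 3 per group, limits the precision.

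Deviations from the group means correlated at 0.111, 0.231 and 0.163 between arrays of the same replicate number and at -0.146 to -0.0104 between others. Deviations within a group cancel, so the negative values follow from the positive ones and are no separate evidence. The labels do not say what a replicate number shares. On the positive correlations alone the numbers were taken to pair the arrays, and the replicate block is given where it changes a call or count. The platform annotation gave a single symbol to 20826 probe sets, more than 1 to 436 and no symbol to 9780. Scripts were tested on simulated data. Members, lists and tests were chosen with earlier results of these data known. Every member probe set is named, with up to 3 genes per list by lowest p among those of at least median brightness and Ccnd1, Myc and Glul. Figures were drawn with matplotlib 3.10.9.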

Additional observations from a re-analysis of the deposited data

How the results depend on the processing

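Each value was recomputed with quantile normalization or median centring, by the methods' t-test, in limma with no trend, on log2(signal + 16), with filters at the median signal (9 members left) and at the Bacillus scale (11 left), with the replicate block and with each array left out. The block with log2(signal + 16), and fits without both replicate 2 arrays, were chosen after seeing the data. In 335 combinations of a member probe set and a setting, 309 kept their sign, 26 changed it, and 0 passed an adjusted p of 0.05 (lowest 0.758). The t-test, the fit with no trend, the filters and the block keep the fold change of the main fit, so no sign could change there. Adding the block to log2(signal + 16) or to the loss of replicate 2 likewise repeats the fold change of that setting. The 309 are therefore not independent checks of the sign. The members' median stayed within -0.040 to 0.24. The block left every member call after adjustment as it was. The count of all probe sets past an adjusted 0.05, 0 in the unpaired fit, was 1 by the methods' t-test, 5 with the block and 2 with the block and log2(signal + 16). Nr2f2 passed with the block at -2.65 and with the block and log2(signal + 16) at -2.16 (adjusted p = 0.0296), but not with the block without replicate 2 (-2.43, adjusted p = 0.402), and ran from -2.94 to -2.45 with 1 array left out. The member count at an unadjusted 0.05, 0 in the unpaired fit, was 1 with the block alone, together with log2(signal + 16) and together with the loss of replicate 2, each time Apc 1376629_at. It was 0 to 1 with 1 array left out, Apc 1376629_at (-0.44, unadjusted p = 0.0443) without control replicate 2 and Tcf7l2 1392592_at (2.61, unadjusted p = 0.0153) without control replicate 3. The 5 other pathway genes past it became 3 without the trend and after median centring, 11 with the block (12 on log2(signal + 16), 10 without replicate 2), and 3 to 6 with 1 array left out, where COUP-TFII siRNA replicate 1 and control replicate 3 each gave 3. Signs turned for Ctnnb1 1369733_at after quantile normalization (0.013), for Apc 1379840_at with log2(signal + 16), with or without the block (0.075), and without both replicate 2 arrays, with or without the block, for Ctnnb1 1369733_at (0.16), Gsk3b (0.077) and Tcf7l2 1377156_at (-0.15). With 1 array left out they turned within ranges of -0.082 to 0.10 for Ctnnb1 1369733_at, -1.42 to 0.58 for Ctnnb1 1375284_at, -1.08 to 0.57 for Apc 1379840_at, -0.18 to 0.016 for Gsk3b, -0.26 to 0.30 for Tcf7l2 1377156_at, -1.66 to 0.088 for 1379815_at, -1.28 to 0.28 for 1394497_at, -0.084 to 1.30 for Tcf7l1 1390283_at and -1.46 to 0.089 for 1382558_at. The causes were not tested.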

Other observations

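Among the other pathway genes the replicate block gave an unadjusted p under 0.05 to Gcg, Apc2 and Cdh2 as well, which are named here after their values were seen. Gcg, the glucagon gene and a target of TCF factors, read 8056, 4789 and 817 in COUP-TFII depleted cells and 6313, 3397 and 394 in control cells. Its signal differed far more between replicate numbers than between groups, and the depleted array was the higher in 3 of 3 pairs (log2 fold change 0.63 ± 1.07 unpaired, -0.55 to 1.61 with 1 array left out, 95% interval with the block 0.33 to 0.94, block adjusted p = 0.566 in limma). Apc2, the relative of Apc found mainly in neurons, read 20.3, 58.4 and 68.0 in depleted cells and 49.9, 81.9 and 88.5 in control cells (-0.72 ± 0.48, or -0.18 without COUP-TFII siRNA replicate 1), lower in each pair. Cdh2, N-cadherin, gave -0.31 ± 0.19, in the same direction as Cdh1.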
